A study of Mus musculus with 30 samples.

Results

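The urea cycle and ammonia handling genes were examined in the liver of adult mouse offspring whose fathers' sperm and seminal plasma came from males on different diets. They were taken as the probe sets annotated to 10 symbols, namely Cps1, Otc, Ass1, Asl, Arg1, Nags, Slc25a15, Slc25a13, Glul and Gls2, and 7 of the 10 had a named probe set among the 22206 tested. Ass1, Glul and Gls2 were not analysed here, so the opening cytosolic step, which joins citrulline to aspartate, and the glutamine cycle were left unmeasured. All 30 animals were C57/BL6J mice of 16 weeks, with 1 Clariom S array each. NN offspring (3 females, 4 males) came from sperm and seminal plasma of males on a normal protein diet, and LL offspring (5 females, 4 males) from males on a low protein diet. NL offspring (3 females, 4 males) combined sperm of a normal diet male with seminal plasma of a low diet male, and LN offspring (3 females, 4 males) the reverse. Every dam was artificially inseminated and then housed with a vasectomised male, which gave the seminal plasma, and dams and offspring of all groups ate standard chow, so no offspring was itself on the low protein diet.

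The urea cycle turns the ammonia set free by amino acid breakdown into urea, and in the mammal it runs in full in hepatocytes, mostly those around the portal vein. Its opening steps take place in mitochondria, where Nags makes the activator of Cps1, Cps1 joins ammonia to bicarbonate and Otc makes citrulline, while Slc25a15 exchanges ornithine for citrulline across the inner membrane. The cytosolic steps use aspartate exported by Slc25a13 (citrin), and end with Asl, which splits argininosuccinate, and Arg1, which releases urea. Dietary protein is a well known regulator of these enzymes, which fall when the animal itself eats less protein.

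The measured genes lie on 7 different chromosomes, so none of them neighbour each other. On GRCm38.p6 they are Cps1 on chromosome 1 (67122426 to 67231267), Otc on X (10252230 to 10321024), Asl on 5 (130011258 to 130024381), Arg1 on 10 (24915207 to 24927470), Nags on 11 (102145513 to 102149528), Slc25a15 on 8 (22375550 to 22398621) and Slc25a13 on 6 (6041218 to 6217304). RefSeq promoter windows of 250 bases before and 50 after the start site were at hand for 4 of the 7 measured genes. They are shown for Otc and Slc25a13, and for Slc25a15, which varied with Asl and Arg1. Over the 29 arrays used below, Otc and Slc25a13 had a Pearson r of 0.67 within groups of diet and sex. It fell to 0.44 without the 2 farthest animals. Capitals mark matches on either strand to the TATA box TATAAA, the CCAAT box CCAAT, the GC box GGGCGG, the E-box CACGTG, or TGACG, the core of the cyclic AMP response element. The windows lie at chrX:10252055-10252354 (plus strand), chr6:6217124-6217423 (minus strand) and chr8:22398228-22398527 (minus strand).
Otc: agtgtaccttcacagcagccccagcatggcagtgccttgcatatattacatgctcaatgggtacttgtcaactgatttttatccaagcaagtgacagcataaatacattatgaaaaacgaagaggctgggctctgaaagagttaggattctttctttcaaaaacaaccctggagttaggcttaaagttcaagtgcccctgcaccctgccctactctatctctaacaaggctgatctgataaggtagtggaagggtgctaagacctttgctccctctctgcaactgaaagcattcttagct
Slc25a13: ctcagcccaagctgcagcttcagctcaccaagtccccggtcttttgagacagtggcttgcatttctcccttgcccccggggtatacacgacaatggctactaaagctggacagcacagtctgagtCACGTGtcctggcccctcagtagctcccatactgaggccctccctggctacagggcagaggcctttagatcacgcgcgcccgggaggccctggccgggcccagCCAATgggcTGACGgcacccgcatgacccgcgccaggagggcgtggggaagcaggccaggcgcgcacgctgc
Slc25a15: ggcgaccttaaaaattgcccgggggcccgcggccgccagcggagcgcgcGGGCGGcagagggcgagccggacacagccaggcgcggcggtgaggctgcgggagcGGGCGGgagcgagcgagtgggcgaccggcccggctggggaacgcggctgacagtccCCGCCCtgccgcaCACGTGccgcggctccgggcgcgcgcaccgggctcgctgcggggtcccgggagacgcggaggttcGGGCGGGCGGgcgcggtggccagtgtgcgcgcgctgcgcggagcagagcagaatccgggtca
The Otc window held none of these motifs and had a GC content of 44.3%, below the median of 52.7% over all 32851 promoter windows. The Slc25a13 window (65% GC) held CACGTG 125 bases before the start, CCAAT at 22 and TGACG at 13 before it, motifs found in 7.15%, 37.4% and 20.8% of all windows. The Slc25a15 window (79% GC) held GGGCGG at 5 places, of which 2 overlap (35.7% of all windows hold it), and CACGTG 77 bases before the start. A further RefSeq start of Slc25a15 has a window of its own, not printed, with a GC content of 60.7% and the GC box at 3 places. As the Otc window held none of the 5 motifs searched, it could share none of them with any other window.

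In signal strength NL replicate 6 stood apart from the other arrays, and it is named wherever it counts. NL replicate 6, labelled male, differed from the mean of the other 3 NL males by -1.20 (Cps1) to -2.96 (Nags) on the log2 scale. The 2221 probe sets with the highest mean signal differed by a median of -2.34 there, so the strong signals as a whole were low on it. Its hybridisation controls averaged 8.59 where every other array gave 10.39 to 11.17, and it correlated with its group at 0.763, the others at 0.979 to 0.992. Its 3 Y-linked genes averaged 3.06, against 6.40 to 7.36 in the other males and 2.38 to 3.00 in females, and LL replicate 1, labelled female, read 5.22 for them. Hepatocyte markers (9 of 10 measured) averaged 12.85 to 13.11 on the 29 other arrays in all 4 groups, and 11.8 on NL replicate 6. Exocrine pancreas markers (6 of 8 measured) averaged 8.29 on NN replicate 5, a male, and 6.55 on NL replicate 6. The remaining arrays read 4.84 to 5.30 for them. NN replicate 5 was kept among the 29 arrays, and the part of this in its values was not tested. Levels and spreads below are for the 29 arrays unless all 30 are named, and each comparison is given both ways.

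All 7 genes were strongly expressed, with mean signals from the 93.2 percentile (Nags) to the 99.6 percentile (Cps1) of the probe sets tested. Signals of different probe sets depend on their probes, so the order of the genes was not read as an order of RNA amounts. Their spread within groups of diet and sex was small, with a residual SD of 0.138 for Cps1 and 0.183 (Otc) to 0.221 (Slc25a13) for the other 6, where the 2221 strongest probe sets had a median SD of 0.182 and all probe sets 0.243. Cps1, the gate of the cycle, was thus the steadiest of the 7 between animals.

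**Figure D1:**
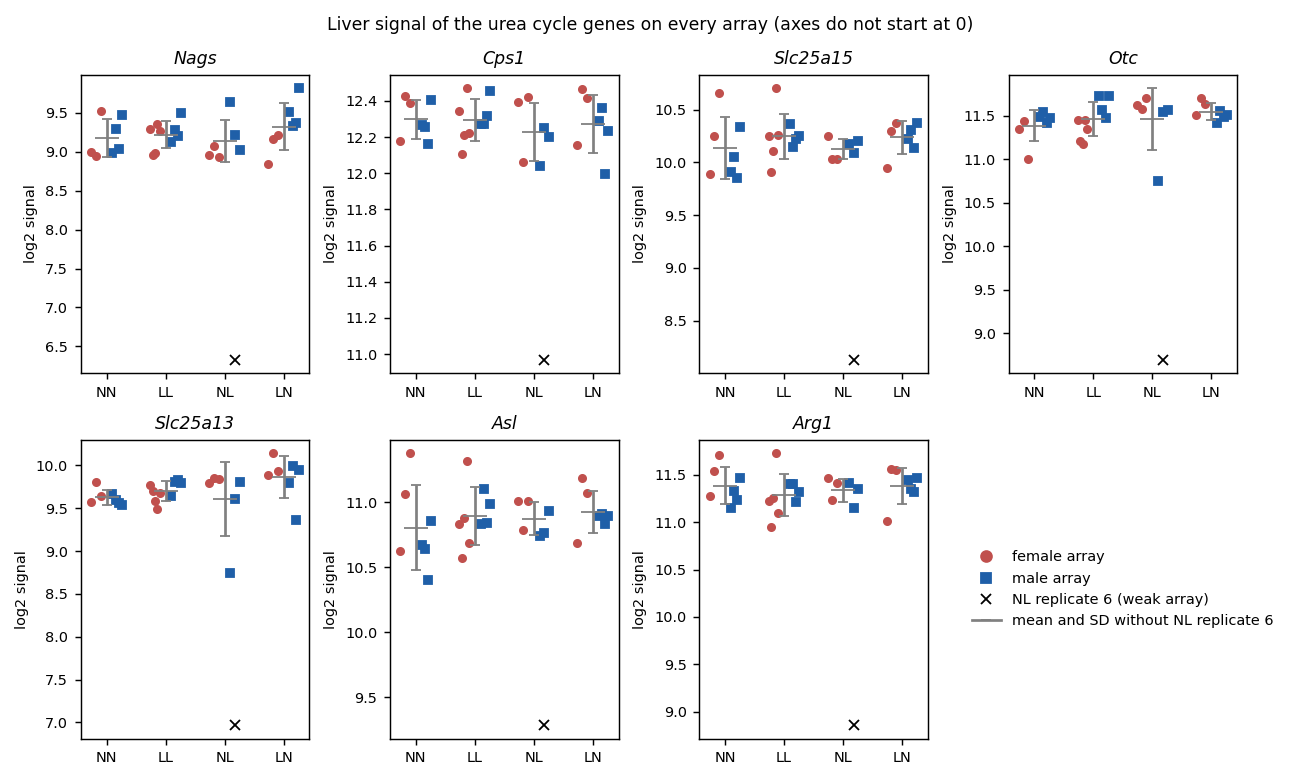
Log2 signal of the 7 measured genes on every array by diet group, with females as circles, males as squares, NL replicate 6 as a cross, and the mean and SD of each group without that array. NL replicate 6 lies below all 29 other arrays for every gene, NL replicate 4 is low for Otc and Slc25a13, and the groups overlap throughout.

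The question put to the 4 groups was whether the diet of the sperm donor or of the seminal plasma donor left a mark on the livers of offspring that never ate it. For the urea cycle genes no such difference passed the test. At an adjusted p under 0.05 (limma, moderated over all 30 arrays, Benjamini-Hochberg over all probe sets), 0 of 7 genes were called in each of 17 comparisons, with all arrays and without NL replicate 6. A fit with plain residual variance, the form of the methods' analysis of variance, also called 0 of 7, and its share of all probe sets was not counted. Few probe sets of any kind were called between diets. With all arrays the share was 0.0135% for NL against NN and for the mismatched groups, NL and LN, against the matched groups, NN and LL, and 0 in all other diet comparisons. Without NL replicate 6 it was 0.0540% for NL against NN, 0.0405% for LN against NN, 0.113% for mismatched against matched, 0.0360% for LN against NN males, and 0 in all other diet comparisons. The intervals say how much could have been missed. Without NL replicate 6, all 49 of the 95% intervals for both sexes together (7 genes, 7 comparisons) lay within a 1.5-fold change either way, from -0.53 to 0.50 on the log2 scale. With all arrays 26 of 49 did, and the intervals reached from -1.18 to 0.79. Within a sex the intervals were wider. Without NL replicate 6, 37 of 42 lay within a 1.5-fold change, with bounds from -0.56 to 0.70. With all arrays 5 of 42 did, with bounds from -1.52 to 1.16. Fewer hepatocytes and less RNA per hepatocyte cannot be told apart in pieces of whole liver.

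Among the mitochondrial genes, Nags read 8.95 to 9.52 (median 9.04) in NN, 8.96 to 9.50 (9.26) in LL, 8.94 to 9.64 (9.05) in NL and 8.85 to 9.82 (9.33) in LN. Cps1 read 12.16 to 12.43 (median 12.27) in NN, 12.11 to 12.47 (12.27) in LL, 12.04 to 12.42 (12.23) in NL and 12.00 to 12.46 (12.29) in LN. The groups overlapped for both genes, and the LN group spread widest for Nags. The Cps1 difference from NN was -0.00 ± 0.08 (SE) in LL, -0.07 ± 0.09 in NL and -0.02 ± 0.09 in LN on the log2 scale, the narrowest estimates of the set. For Nags, which sets how active Cps1 is, it was 0.04 ± 0.12, -0.04 ± 0.14 and 0.14 ± 0.13.

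Otc ranged from 11.01 to 11.54 (median 11.44) in NN, 11.17 to 11.73 (11.45) in LL, 10.75 to 11.71 (11.57) in NL and 11.42 to 11.70 (11.51) in LN. Above the highest NN animal lay 3 of 9 LL, 4 of 6 NL and 3 of 7 LN animals, while NL replicate 4 lay below every NN animal. The mean differences from NN were 0.07 ± 0.11, 0.07 ± 0.12 and 0.16 ± 0.12 for LL, NL and LN, none past the test (adjusted p = 0.903, 0.821 and 0.636). Slc25a15, the ornithine carrier that feeds Otc, differed by 0.11 ± 0.11, -0.00 ± 0.12 and 0.10 ± 0.11.

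With both sexes together and NL replicate 6 left out, Slc25a13, the aspartate carrier, had the largest difference of the 7 in LN against NN. The same held for NL against LN. Slc25a13 itself differed from NN by 0.07 ± 0.12 in LL and -0.02 ± 0.13 in NL, less than some other genes did. It read 9.54 to 9.81 (median 9.59) in NN, 9.49 to 9.83 (9.70) in LL, 8.74 to 9.86 (9.80) in NL and 9.36 to 10.14 (9.94) in LN. In LN, 5 of 7 animals lay above the highest NN animal and 1 below the lowest. The LN mean was 0.24 ± 0.13 above NN (95% interval -0.02 to 0.50, adjusted p = 0.483), and the NL mean 0.26 below LN (-0.53 to 0.02, adjusted p = 0.747). Neither passed the test, and the second rested on NL replicate 4, since it was -0.08 once that array was left out too.

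The cytosolic enzymes showed wide, overlapping ranges. Asl read 10.40 to 11.37 (median 10.67) in NN, and none of the 22 LL, NL and LN arrays fell outside that range. Its differences from NN were 0.09 ± 0.11 in LL, 0.07 ± 0.13 in NL and 0.12 ± 0.12 in LN. Arg1, which sheds the urea, ranged from 11.15 to 11.70 (median 11.33) in NN and differed by -0.10 ± 0.10, -0.05 ± 0.11 and 0.00 ± 0.11. The 3 comparisons share the NN arrays, so they are not independent of each other.

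**Figure D2:**
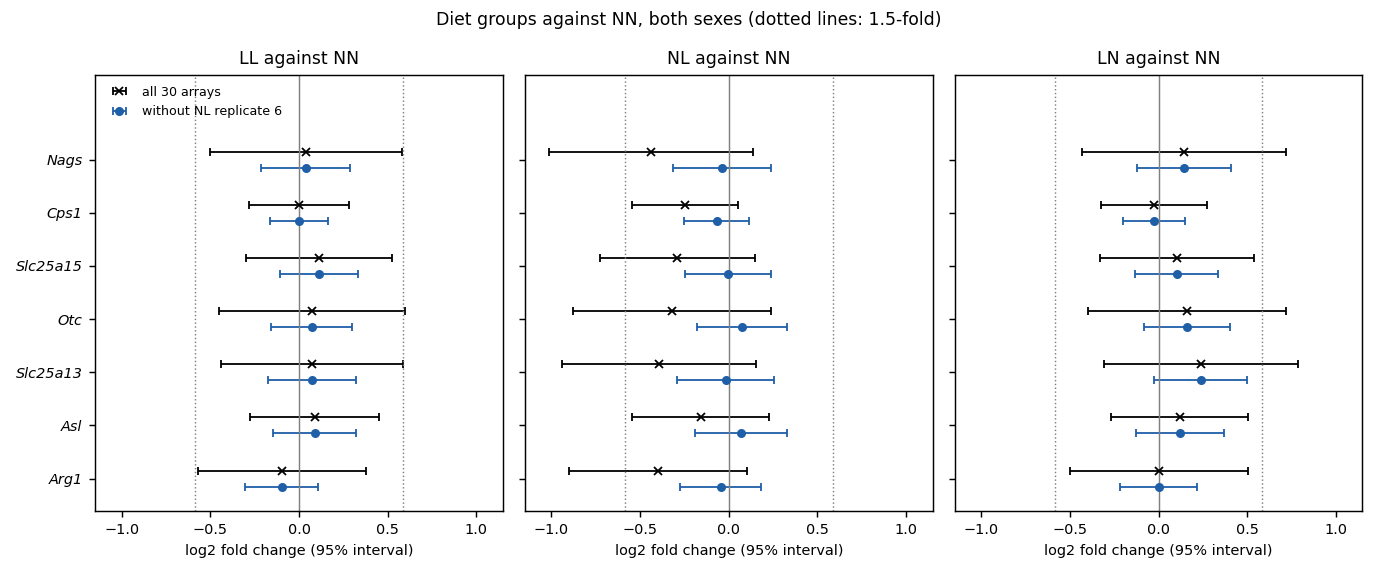
Log2 fold change of each gene against NN with its 95% interval, both sexes together, with all 30 arrays (crosses) and without NL replicate 6 (circles), dotted lines marking a 1.5-fold change. Without that array every interval spans 0 and stays inside the dotted lines, and with it the NL estimates lie at -0.44 to -0.16.

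The NL values turned on NL replicate 6. With all 30 arrays, all 7 genes were lower in NL than in NN, by 0.16 (Asl) to 0.44 (Nags) on the log2 scale, with a median of -0.32 against 0.04 over all probe sets. None passed the adjusted test (adjusted p = 0.273 to 0.586), and 0 of 7 had an unadjusted p under 0.05, where 23.8% of all probe sets did. Without the array the median was -0.02, with 5 of the 7 genes below NN and 2 above, and again 0 of 7 had an unadjusted p under 0.05 (14.1% of all probe sets). NL against LN behaved alike. With all arrays Slc25a13 (-0.63 ± 0.27) and Nags (-0.58 ± 0.28) had unadjusted p values of 0.0246 and 0.0470 (background 14.6%), with adjusted p values of 0.339 and 0.341. Without it they stood at -0.26 ± 0.13 and -0.18 ± 0.14, and 0 of 7 had an unadjusted p under 0.05 (6.89% of all probe sets). For LL against NN the count was 0 of 7 with all arrays and without the array (3.39% and 8.43% of all probe sets), and for LN against NN likewise 0 of 7 (4.66% and 11.6%).

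The design also lets the diet of the sperm donor be set against that of the seminal plasma donor. Low protein diet sperm (LL and LN against NN and NL) went with a median difference of 0.08 over the 7 genes without NL replicate 6, from -0.02 (Arg1) to 0.16 (Slc25a13, 95% interval -0.02 to 0.35). Low protein diet seminal plasma (LL and NL against NN and LN) went with a median of -0.02, from -0.09 (Slc25a13) to 0.02 (Asl). The mismatched groups differed from the matched groups by a median of 0.03, from -0.05 (Cps1) to 0.08 (Otc). With all arrays these medians were 0.25, -0.20 and -0.14, with the NL group on the normal side of the sperm contrast and on the low side of the seminal plasma contrast. In none of the 3 comparisons did a gene have an unadjusted p under 0.05. Leaving out NL replicate 4 as well, chosen after seeing the data, moved Slc25a13 to 0.08 for sperm diet and -0.01 for seminal plasma diet. For mismatched groups it moved Slc25a13 to 0.16 and Otc to 0.15 (limma, unadjusted p = 0.0220 and 0.0298, adjusted p = 0.317 and 0.350). The share of all probe sets at an unadjusted p under 0.05 was not counted for that fit. The background shares were 4.81% and 6.52% for sperm diet, 11.0% and 8.55% for seminal plasma diet and 12.2% and 12.6% for mismatched groups, with all arrays and without the array.

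Within females, which leave NL replicate 6 out of the groups compared, no gene passed the test, and Otc had the lowest unadjusted p values. NN females read 11.35, 11.44 and 11.01 for Otc, NL females 11.62, 11.58 and 11.71, LN females 11.51, 11.70 and 11.63, and LL females 11.45, 11.21, 11.17, 11.44 and 11.35. All NL and LN females lay above all NN females, whereas LL females overlapped NN. How many of all probe sets separate these few animals in the same way was not counted. In the fit without NL replicate 6, Otc was 0.37 ± 0.16 higher in NL females (unadjusted p = 0.0280, adjusted p = 0.471) and 0.35 ± 0.16 higher in LN females (unadjusted p = 0.0378, adjusted p = 0.598), and neither call held over all probe sets. It was the 1 of 7 genes at that level in each comparison (9.53% and 8.02% of all probe sets for NL and LN), and 0 of 7 were in LL females (11.3%). With all arrays, whose residual spread was wider (SD of Otc 0.510 against 0.183), 0 of 7 were in each of the 3 comparisons (4.30%, 3.38% and 2.96% for LL, NL and LN). The low NN value of 11.01 belongs to NN replicate 3, the animal that was high for Asl, Slc25a15 and Nags. Without that animal too, Otc differed by 0.24 in NL females and 0.22 in LN females (unadjusted p = 0.174 and 0.216, adjusted p = 0.809 and 0.902), and 0 of 7 genes were at an unadjusted p under 0.05. The share of all probe sets at that level was not counted for that fit. Slc25a13 followed Otc in LN females (0.32 ± 0.18) and in NL females (0.16 ± 0.18), without passing the test, and Arg1 was at -0.26 ± 0.15 in LL females (unadjusted p = 0.0948).

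In males the NL comparison turned on 2 arrays. Otc read 11.48, 11.54, 11.41 and 11.47 in NN males, and 10.75, 11.54, 8.70 and 11.57 in NL males (replicates 4 to 7). Slc25a13 read 9.66, 9.59, 9.56 and 9.54 in NN males, and 8.74, 9.60, 6.97 and 9.80 in NL males. For both genes replicate 7 lay above the range of NN males, replicate 5 within it and replicates 4 and 6 below it. With all arrays Otc was -0.84 ± 0.33, Slc25a13 -0.81 ± 0.33 and Cps1 -0.41 ± 0.19 in NL against NN males, with unadjusted p values of 0.0183, 0.0192 and 0.0424 and adjusted p values of 0.105, 0.107 and 0.142. These 3 of 7 compare with 32.8% of all probe sets at an unadjusted p under 0.05. Without NL replicate 6 the 3 differences were -0.19 ± 0.15, -0.21 ± 0.17 and -0.11 ± 0.13, and 0 of 7 genes were at that level (11.5% of all probe sets). When NL replicate 5 or 7 was left out and NL replicate 6 kept, the call changed. Without replicate 5, 3 genes (Otc, Slc25a13, Cps1) passed the adjusted test, and without replicate 7, 2 (Otc, Slc25a13) did. The share of all probe sets passing in these fits was not counted, so the calls are not read as particular to these genes. On NL replicate 4, Cps1 (12.04) and Asl (10.74) were also the lowest of the 6 NL arrays, and Cps1 lay below every NN animal, while Nags (9.64) was the highest of the 6. Its hepatocyte markers (13.1) and its Kupffer cell and macrophage markers (8.26, 8 of 9 measured) averaged highest of the 29 arrays, its lymphocyte markers (3.95, 5 of 6 measured) lowest, and the spread of its signals between quartiles (3.16) was the narrowest. The part of these in its values was not tested. Without NL replicates 4 and 6, Otc was 0.08 and Slc25a13 0.11 in NL against NN males (adjusted p = 0.977 and 0.966). In LL and LN males 0 of 7 genes had an unadjusted p under 0.05, with all arrays (1.93% and 4.72% of all probe sets) and without NL replicate 6 (5.03% and 12.1%). The highest estimates there were Asl in LL (0.30 ± 0.15) and Nags in LN (0.31 ± 0.16).

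**Figure D3:**
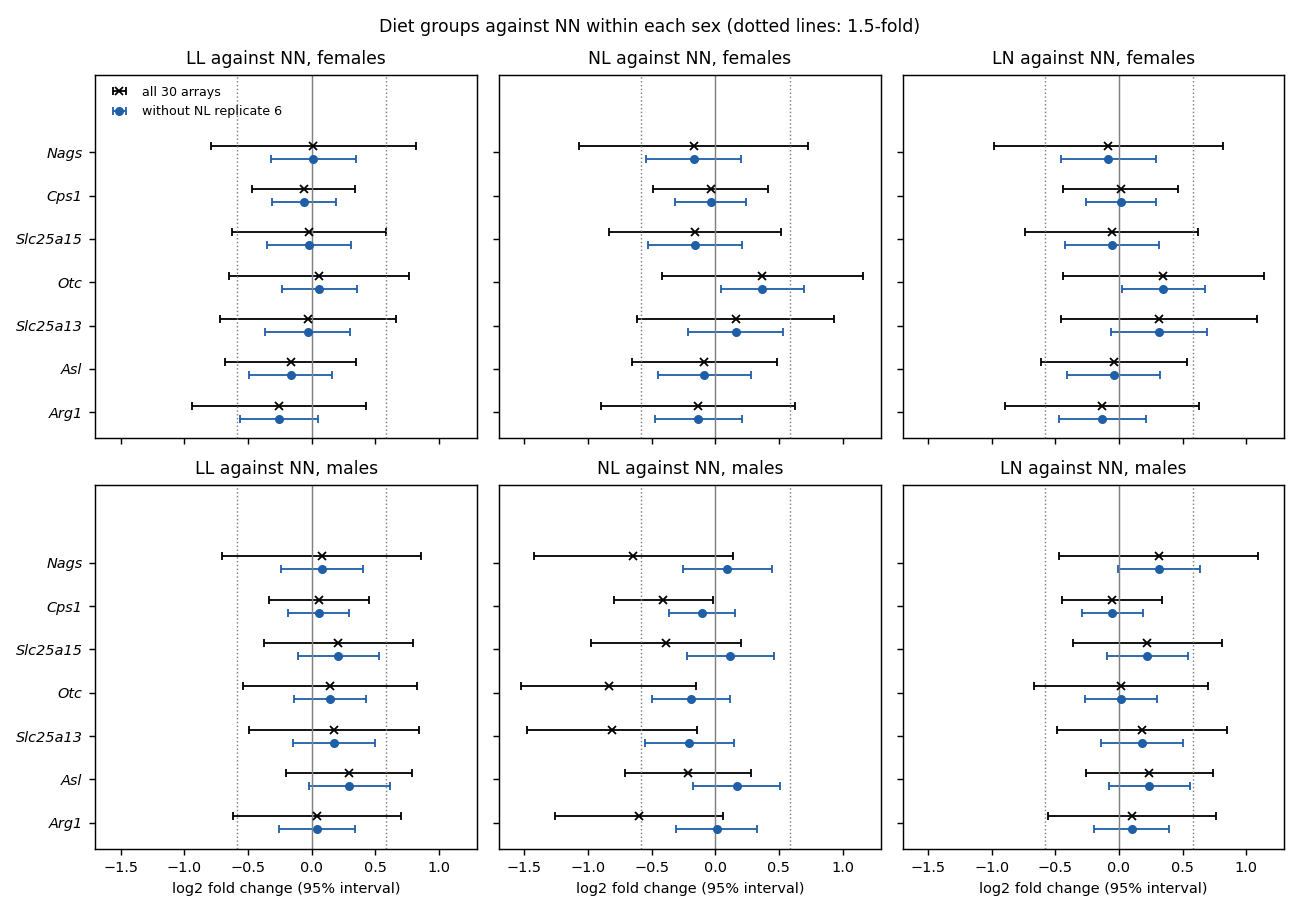
Log2 fold change of each gene against NN with its 95% interval in females (upper row) and males (lower row), with all 30 arrays (crosses) and without NL replicate 6 (circles), dotted lines marking a 1.5-fold change. In females Otc stands to the right of 0 in NL and LN, and in NL males the crosses lie to the left at -0.84 to -0.21, while the circles lie at -0.21 to 0.17.

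Whether a diet effect differed between the sexes was tested as an interaction, and 0 of 7 genes passed the adjusted test (0 of all probe sets did). For Otc the NL effect was lower in males than in females by 0.56 ± 0.22 without NL replicate 6 (unadjusted p = 0.0160, adjusted p = 0.970, background 4.98%) and by 1.21 ± 0.51 with all arrays (unadjusted p = 0.0252, adjusted p = 0.661, background 6.28%). It was lower by a smaller margin, at -0.29 (unadjusted p = 0.117), without NL replicates 4 and 6, and at -0.43 (unadjusted p = 0.0659) without NL replicate 6 and NN replicate 3. For Asl the LL effect was higher in males by 0.46 ± 0.22 without NL replicate 6 (unadjusted p = 0.0461, adjusted p = 0.764, background 6.49%). With all arrays 0 of 7 genes were at that level (2.39%). The count was also 0 of 7 once LL replicate 1 was left out besides NL replicate 6, a fit whose share of all probe sets was not counted. For LN 0 of 7 genes were at that level with all arrays or without the array (2.74% and 7.10%). Sex differences of effect were the least precise estimates, and 5 of 21 intervals without NL replicate 6 fitted within a 1.5-fold change.

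Sex itself, by contrast, divided the liver arrays, with 2.51% of probe sets called with all arrays and 5.65% without NL replicate 6. Of the 7 urea cycle genes 0 were called, and at such shares 7 genes are too few for that count to set them apart. LL replicate 1 was counted as female, as labelled. Nags came closest. It ranged from 8.98 to 9.82 (median 9.29) in 15 males and from 8.85 to 9.52 (median 9.03) in 14 females, and the male mean was the higher in each of the 4 diet groups, by 0.04 in NN, 0.10 in LL, 0.31 in NL and 0.44 in LN. The difference was 0.22 ± 0.08 (95% interval 0.05 to 0.39, unadjusted p = 0.0135, adjusted p = 0.135), and Nags was the 1 of 7 genes with an unadjusted p under 0.05, where 17.3% of all probe sets had one. With all arrays it was 0.04, and 0 of 7 were at that level (13.1%). The other 6 genes differed by -0.16 (Slc25a13) to 0.01 (Otc), and all 7 intervals lay within a 1.5-fold change. Females spread more than males for the cytosolic enzymes and the ornithine carrier. The SD over animals was 0.247 in females and 0.105 in males for Arg1, 0.254 and 0.165 for Asl, and 0.252 and 0.153 for Slc25a15. For Cps1 it was 0.142 and 0.120. Males spread more for Slc25a13 (0.171 in females, 0.299 in males), Nags (0.197 and 0.238) and Otc (0.208 and 0.223). These differences in spread were not tested.

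Although the groups differed little, the animals within a group differed in a patterned way. After removing the mean of each diet and sex, the 29 deviations of Asl and Arg1, the consecutive cytosolic enzymes, followed each other with a Pearson r of 0.87 (Spearman rho 0.78). Slc25a15 joined them (r = 0.83 with Asl and 0.86 with Arg1), and Cps1 followed more loosely (0.73, 0.64 and 0.66 with Asl, Arg1 and Slc25a15). All 6 pairs among these 4 genes had an r of at least 0.64, and the other 15 pairs ran from -0.34 to 0.67. The 4 were set together because of these same values, so the 6 high pairs follow from the choice. Leaving out the 2 animals farthest for 1 gene of each pair left the 6 at 0.65 to 0.81. How often other probe sets pair this closely was not counted. Nags went with Slc25a15 (0.65) and Arg1 (0.56), less with Cps1 (0.30), the enzyme it serves. The animals at the upper end were LL replicate 4, whose Asl, Arg1 and Slc25a15 lay 0.46, 0.48 and 0.46 above the mean of LL females, and NN replicate 3, at 0.35, 0.20 and 0.39 above NN females.

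Otc and Slc25a13 followed Cps1 less closely (r = 0.42 and 0.41) and the other 3 genes of that set least. Their r with each other was 0.67, but the rank correlation was 0.36 and r fell to 0.44 without the 2 farthest animals, since NL replicate 4 was 0.54 low for Otc and 0.64 low for Slc25a13. Otc had an r of 0.03 with Arg1 and 0.05 with Slc25a15, and Slc25a13 of -0.12 and 0.00 with the same genes. Without the 2 animals farthest for Otc, Otc stood at 0.29 with Arg1 and 0.33 with Slc25a15, the carrier that brings in the ornithine it uses. The near-zero values for Otc thus rested on those animals. For Slc25a13 the animals left out were those farthest for Arg1 or for Slc25a15, which gave -0.11 and 0.12. These 2 values without the animals farthest for Slc25a13 itself were not computed. These correlations describe 29 arrays that share 1 normalization, and points on the same array share its RNA preparation.

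**Figure D4:**
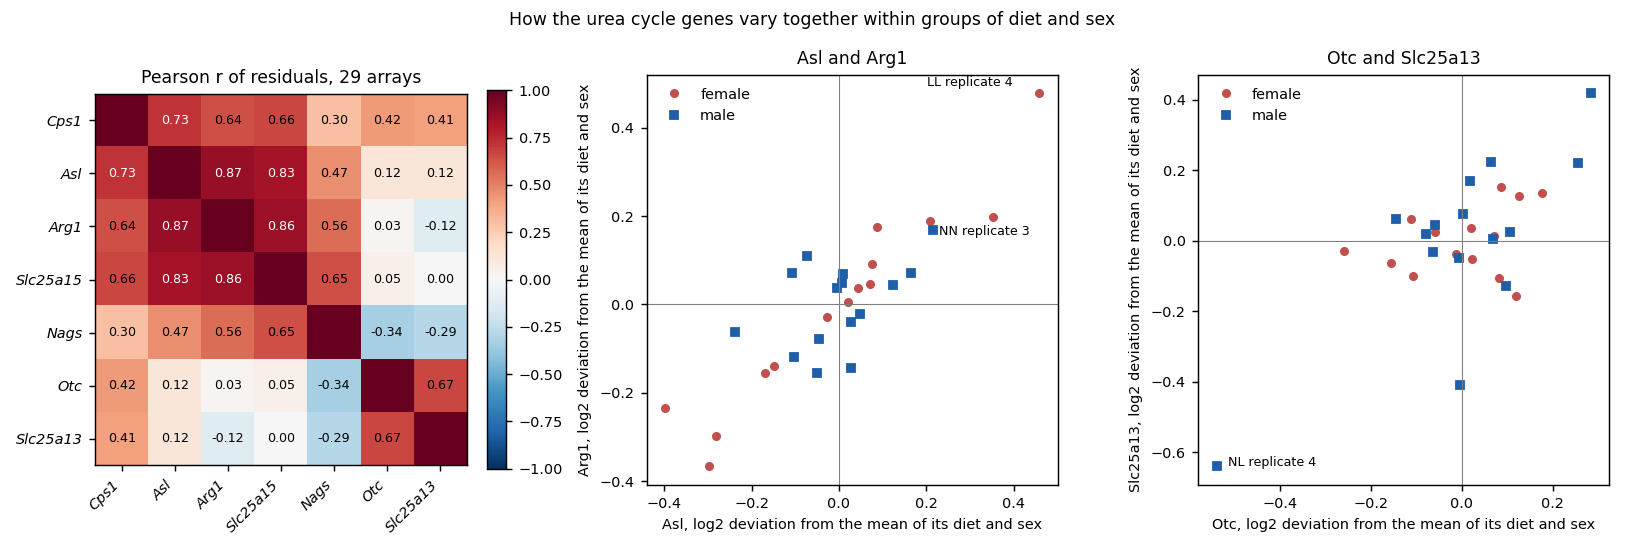
Left, Pearson r of the deviations of each gene from the mean of its diet and sex over 29 arrays, and right, the deviations themselves on the log2 scale for Asl against Arg1 and for Otc against Slc25a13, 1 point per array. Asl, Arg1, Slc25a15 and Cps1 form a block with r from 0.64 to 0.87, and the Otc and Slc25a13 relation leans on NL replicate 4.

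Over all named probe sets, the 5 genes whose deviations were most like those of Cps1 were Aass (r = 0.74), the opening enzyme of lysine breakdown, Asl (0.73), Mdh1 (0.73), the cytosolic malate dehydrogenase, Gm20831 (0.72) and Hgd (0.71), an enzyme of tyrosine breakdown. Arg1 and Slc25a15 each had the other among their nearest 2, and both lay close to Ppa1, a pyrophosphatase (0.78 and 0.87), and Nnmt, which methylates nicotinamide (0.85 and 0.78). Otc was most like Aadac (r = 0.92, rho 0.84) and Sucnr1 (r = 0.92, rho 0.80). Slc25a13 was most like Bdh1 (r = 0.86, rho 0.70), which makes the ketone body hydroxybutyrate, and Rdh16 (r = 0.86, rho 0.60). The part of the low NL replicate 4 in these values was not tested. Nags had Trim2 (0.86) and Arntl (0.78), a gene of the circadian clock, among its nearest 5. All these genes were picked as the highest r among 19572 named probe sets, and none was tested. Gm20831 had a mean signal of 4.43, close to the background controls of the 29 arrays (3.87 to 4.25).

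The surrounding pathways were as flat between diets. Of 111 listed genes of amino acid breakdown, amino acid and ammonia transport, urea cycle partners, regulators and liver zonation (members left out), 100 were measured, and 0 passed the adjusted test in any diet comparison, with or without NL replicate 6. At an unadjusted p under 0.05 without that array, 3 of 100 were higher and 0 lower in LL, 6 higher and 2 lower in NL, and 10 higher and 6 lower in LN against NN, or 3%, 8% and 16% of the listed genes beside 8.43%, 14.1% and 11.6% of all probe sets. Their median difference was -0.00, 0.03 and 0.04, beside 0.01, 0.01 and 0.02 over all probe sets. With all arrays 0 of 100 were at that level in LL, 4 higher and 7 lower in NL, and 1 higher and 0 lower in LN, and the NL median was -0.19 (0.04 over all probe sets). In NL males the balance turned on NL replicate 6, with 4 higher and 32 lower and a median of -0.46 with it, and 4 higher and 6 lower and a median of 0.00 without it.

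The single genes named next were picked for the smallest p values of their lists, and they differed more than the members in LL and NL. Without NL replicate 6 the members ran from -0.10 to 0.11 in LL and from -0.07 to 0.07 in NL against NN, and from -0.02 to 0.24 in LN. Uroc1, urocanase of histidine breakdown, read 9.93 to 10.5 (median 10.3) in NN and 10.2 to 10.8 (10.5) in LL, a difference of 0.27 ± 0.10 (adjusted p = 0.448), with 0.28 ± 0.11 in NL and 0.23 ± 0.10 in LN. Hnf4a, a transcription factor that drives hepatocyte genes, differed by 0.29 ± 0.12 in NL (adjusted p = 0.265) and 0.30 ± 0.11 in LN (adjusted p = 0.310). Gcgr, the glucagon receptor, through which fasting raises urea cycle enzymes, differed by -0.25 ± 0.11 in NL (adjusted p = 0.305) and -0.31 ± 0.10 in LN (adjusted p = 0.252). None of them passed the test, and with NL replicate 6 kept the NL values were -0.00 for Uroc1, 0.03 for Hnf4a and -0.57 for Gcgr.

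Between the sexes some genes of these lists passed the test. Without NL replicate 6, 16 of the 100 passed the adjusted test, 3 higher and 13 lower in males, and with all arrays 7 did, 1 higher and 6 lower, against 5.65% and 2.51% of all probe sets. Asns, which makes asparagine, was higher in males by 0.87 ± 0.15 (adjusted p = 0.000196), with medians of 6.68 in males and 5.84 in females. Agxt, which clears glyoxylate, was lower in males by 0.50 ± 0.08 (adjusted p = 0.000206), with medians of 9.50 and 9.91. Ppargc1a, a coactivator of fasting genes, was 0.71 ± 0.11 lower in males (adjusted p = 7.02e-05). Slc1a2, a glutamate carrier of the hepatocytes around the central vein, was 0.43 ± 0.10 lower in males (adjusted p = 0.00666), and Agmat, an arginine side branch enzyme, 0.23 ± 0.06 lower (adjusted p = 0.0247). Of the portal zone genes Cyp2f2 was higher in males (0.34 ± 0.07) while Ctsc (-0.70 ± 0.10), Hsd17b6 (-1.10 ± 0.21) and Apoa4 (-0.80 ± 0.16) were lower. These are the 4 of that list with the smallest p, and the zone was not tested as a set. With all arrays Asns, Agxt, Ppargc1a, Ctsc, Hsd17b6 and Apoa4 still passed, and Slc1a2, Agmat and Cyp2f2 did not (adjusted p = 0.150, 0.139 and 0.334).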

How the data were processed

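Liver RNA of 30 offspring was hybridised to 1-colour Clariom S mouse arrays, with values made in Partek Genomics Suite per the labels. What the authors deposited is a log2 signal per probe set, alike in scale on all arrays. The background correction, the probe summary and the normalization are not stated there, and the values were used unchanged. After removal of 6923 control probe sets from 29129, 22206 entered the tests, and 19572 of these have a single symbol in the annotation. Ass1, Glul and Gls2 are not among them, and their part in the rule for named genes fell away. The number of arrays limits the precision.

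Linear models were fitted with limma 3.58.1 (R 4.3.3 with the data.table package, 1.17.8) to all arrays, on 4 diet groups or on 8 groups of diet and sex, and p-values were adjusted by Benjamini-Hochberg over all tested probe sets. Tests were two-sided, intervals use the moderated t distribution, and the fit was tested on simulated data. All 17 comparisons were repeated without NL replicate 6, and the alternatives were normalization, a signal filter, plain variance, array weights, the groups fitted, sex as covariate, the replicate number as block and each array left out. Text was restricted to the members, the 4 genes with the smallest p per other list, and the 5 genes most like Cps1; the genes most like the other members were added after their values were seen. The members and lists were chosen with earlier results of these data known. Replicate numbers do not pair the arrays (correlation of same-numbered deviations -0.21 to 0.12 over 20 same-numbered pairs of an NN array with one of another group). Litters are not in the labels. The methods give each pair of a male and a female as from a separate litter, so some arrays of a group may be siblings, and they were treated as independent.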

Additional observations from a re-analysis of the deposited data

Results flagged for a closer look

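A value was looked at again where the highest or lowest array of a diet group lay further from its neighbour than Dixon's 95% limit allows, a limit that chance passes in about 1 of 20 groups. Of 35 sets of a gene and a group (7 genes in 4 groups, and in NL without NL replicate 6), 10 did. NL replicate 6 was the lowest array of its group by this measure for all 7 genes, at 10.97 for Cps1, 8.70 for Otc, 9.28 for Asl, 8.86 for Arg1, 6.33 for Nags, 8.13 for Slc25a15 and 6.97 for Slc25a13. With that array left out, NL replicate 4 was set apart for Otc, at 10.75 with the next array at 11.54, and for Slc25a13, at 8.74 with the next at 9.60. In NN, replicate 3 was set apart for Otc, at 11.01 with the next at 11.35. No diet effect on a member differed between the sexes at an adjusted p under 0.05 (limma).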

How the results depend on the processing

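Over 41 alternatives, no member that passed the adjusted test changed sign. The count of members passing stayed at 0 in each comparison and alternative, except NL against NN in males, where leaving out single arrays gave 0 to 3. It was 3 without NL replicate 5 (Cps1, Otc and Slc25a13, adjusted p = 0.0498, 0.0290 and 0.0305). It was 2 without NL replicate 7 (Otc and Slc25a13, adjusted p = 0.0187 and 0.0155), and NL replicate 6 was kept in both. The share of all probe sets passing was not counted for these fits. The members' median moved by more than its SD between arrays (0.196 for 4 groups, 0.194 for 8) in comparisons that hold the NL group. Leaving out arrays gave medians of -0.427 to -0.0170 for NL against NN, -0.481 to -0.0847 for NL against LN, -0.802 to 0.0104 for NL against NN in males and -0.707 to 0.145 for the sex difference in that effect. Quantile normalization gave -0.171 for NL against LN, -0.246 in NL males and -0.0593 for their sex difference. Array weights gave 0.0253 for NL against NN, -0.0461 for NL against LN, -0.00674 for seminal plasma diet, -0.0463 in NL males and 0.0381 for the sex difference. Leaving out both NL replicates 4 and 6, chosen after seeing the data, gave -0.0127 for NL against NN, -0.0620 for NL against LN, 0.0559 for sperm diet, -0.00351 for seminal plasma diet, 0.0786 in NL males and 0.0893 for the sex difference. Leaving out NN replicate 3 and NL replicate 6, also chosen after seeing the data, gave 0.0456 for the sex difference. With the replicate block the medians were 0.03 for LL, -0.32 for NL and 0.12 for LN against NN, and the block changed no call. Among all members and comparisons 180 of 2961 estimates took the opposite sign, none of them past the test. The cause of these shifts was not tested.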
